A study of Mus musculus with 2 samples.

Results

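Messenger RNA of the LC3 and GABARAP family and of the best-known autophagy cargo receptors was followed through the cell classes of the inflamed mouse retina. The group holds 10 genes, taken by symbol from the 32285 features listed for both libraries. Members of the conjugated family are Map1lc3a, Map1lc3b, Gabarap, Gabarapl1 and Gabarapl2. The receptor genes are Sqstm1, Nbr1, Optn, Tax1bp1 and Calcoco1. Each symbol was found once, and all 10 genes had UMIs (counted RNA molecules) in both libraries.

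In macroautophagy a growing membrane closes around cargo and then fuses with the lysosome. LC3 and GABARAP proteins are ubiquitin-like proteins that are attached to a lipid of that membrane by a conjugation machinery in which ATG12–ATG5 with ATG16L1 acts as the ligase. Receptors such as p62, the product of Sqstm1, bind ubiquitinated cargo with one part of the protein and LC3 or GABARAP with another, and are degraded with the cargo. In the retina photoreceptors, Müller glia and pigment epithelium all rely on this pathway. Transcripts, not lipidated protein or degradation, were counted here.

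The study asked what loss of Atg5 in Müller glia, the radial glia of the retina, does to the response to lipopolysaccharide (LPS), a bacterial wall component. The control library came from Atg5fl/fl mice. The knockout library came from GLAST-CreER; Atg5fl/fl mice given 4-hydroxy-tamoxifen, in which a drug-activated Cre recombinase under the promoter of the glial glutamate transporter GLAST can excise the floxed part of Atg5. Both groups received LPS at 0.5 µg per eye in PBS into the vitreous, and 6 retinas were pooled into 1 library per group. The drug is named for the knockout group alone, so genotype, Cre and drug cannot be told apart, and GLAST is also used by astrocytes. Labels and design text give no age, sex or time between injection and harvest. With 1 library per group there is no replicate check and no test of any difference between groups. Every interval below is a 95% interval for counting error only.

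The files held 8690 and 5229 barcodes in the control and knockout libraries, with 43669961 and 50676223 UMIs, and 8274 and 4662 cells were kept. Median depth per kept cell was 1396 UMIs for the control and 6808 for the knockout library; rods made up much of the former. Cells were grouped by clusters and named from marker genes. The classes with at least 50 cells in each library were Müller glia-like (341 and 561 cells), rod-like (3207 and 375), cone-like (115 and 99), rod bipolar-like (148 and 214), cone bipolar-like (426 and 690), amacrine-like (620 and 1124), monocyte and macrophage-like (97 and 51), neutrophil-like (219 and 164) and endothelial-like cells (56 and 51). Retinal ganglion-like cells reached that number in the knockout alone (80 cells). Another 2348 and 564 cells formed a rod cluster led by lens crystallin genes. A further 61 and 54 cells, led by Chil1, Grem1 and Orm1, had Müller markers as their best list but were kept apart and unnamed, since 69.2% of those markers stood out there, Kcnj10 was at 0 in the control and Rlbp1 was at 9.51 and 10.2 CPM (UMIs scaled to a total of 1000000 for the class), against 394 and 173 CPM in the Müller class. The remaining unnamed cells were 6.10% and 12.4% of the libraries. Barcodes shared by the libraries numbered 15.

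Atg5, the targeted gene, was at 19.8 CPM in control and 18.1 CPM in knockout Müller glia-like cells (ratio 0.914, interval 0.720 to 1.16). A 3′ tag outside the excised part does not report excision, so this value checks nothing about the deletion. All 13 Müller markers were detected in the class in both libraries. Their summed level was 17042 CPM in the control library and 12946 CPM in the knockout library, and glutamine synthetase (Glul) stood at 1798 and 846 CPM.

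The genes lie on 5 mouse chromosomes of build mm10. Map1lc3a is at chr2:155276297-155278073 and Optn at chr2:5020642-5064051. Gabarapl1 is at chr6:129533160-129542346 and Tax1bp1 at chr6:52713729-52766780. Map1lc3b occupies chr8:121590361-121598760 and Gabarapl2 chr8:111940703-111953612. Chromosome 11 carries Gabarap (chr11:69991143-69994951), Sqstm1 (chr11:50199366-50210827) and Nbr1 (chr11:101552149-101581951), and Calcoco1 is at chr15:102706777-102722178. Map1lc3b overlaps Gm20388 and Gabarapl1 overlaps Gm44243 on the same strand, so reads of these pairs may be shared or discarded. Sqstm1 overlaps Mrnip on the other strand and Optn overlaps an antisense gene. Use of strand in the counting is not given in the sources used here.

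Upstream sequences of 3 receptor genes are shown because, among the receptors, these had the ratios between control Müller glia-like cells and rods farthest from 1, described further on. Each is the 250 bases before the RefSeq gene start (GRCm38.p6), 5′ to 3′ on the gene's strand, and capitals mark a match to a searched motif.
Optn, chr2:5064118-5064367, minus strand: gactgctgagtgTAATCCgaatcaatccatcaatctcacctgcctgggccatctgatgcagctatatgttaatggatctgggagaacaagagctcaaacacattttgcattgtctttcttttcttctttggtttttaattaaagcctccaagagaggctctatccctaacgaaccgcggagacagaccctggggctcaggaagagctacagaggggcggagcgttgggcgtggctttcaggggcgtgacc
Tax1bp1, chr6:52713479-52713728, plus strand: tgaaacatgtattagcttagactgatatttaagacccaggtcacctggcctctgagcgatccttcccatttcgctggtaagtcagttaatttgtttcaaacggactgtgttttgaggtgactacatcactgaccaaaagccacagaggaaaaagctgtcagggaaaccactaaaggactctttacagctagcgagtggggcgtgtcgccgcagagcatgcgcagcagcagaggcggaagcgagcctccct
Sqstm1, chr11:50210821-50211070, minus strand: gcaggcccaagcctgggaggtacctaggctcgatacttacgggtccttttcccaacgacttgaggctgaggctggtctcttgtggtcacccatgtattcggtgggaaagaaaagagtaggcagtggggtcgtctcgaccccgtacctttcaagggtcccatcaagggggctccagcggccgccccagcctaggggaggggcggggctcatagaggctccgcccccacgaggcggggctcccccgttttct
The letters searched on both strands were CACGTG (the core of the CLEAR element of lysosomal genes), TGACNNNGC (core of the antioxidant response element), TGANTCA (AP-1), GGGANTTCC (a form of the NF-kB site), TAATCC (core of the photoreceptor factor CRX) and CCGGAAG (ETS). Optn held TAATCC, which 6.38% of 27025 upstream windows of the same length hold. Neither Sqstm1 nor the first listed start of Tax1bp1 held any of the 6. Among the other members' 8 windows, the second Tax1bp1 start held TGACGAAGC, a form found in 10.1% of windows, and Gabarapl2 held CCGGAAG, found in 7.05%. Nbr1 also has a second listed start, without a match. A match is a description of letters, not of binding, and its absence says nothing about a factor. Sequences were matched for 9 of the 10 genes.

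**Figure D1:**
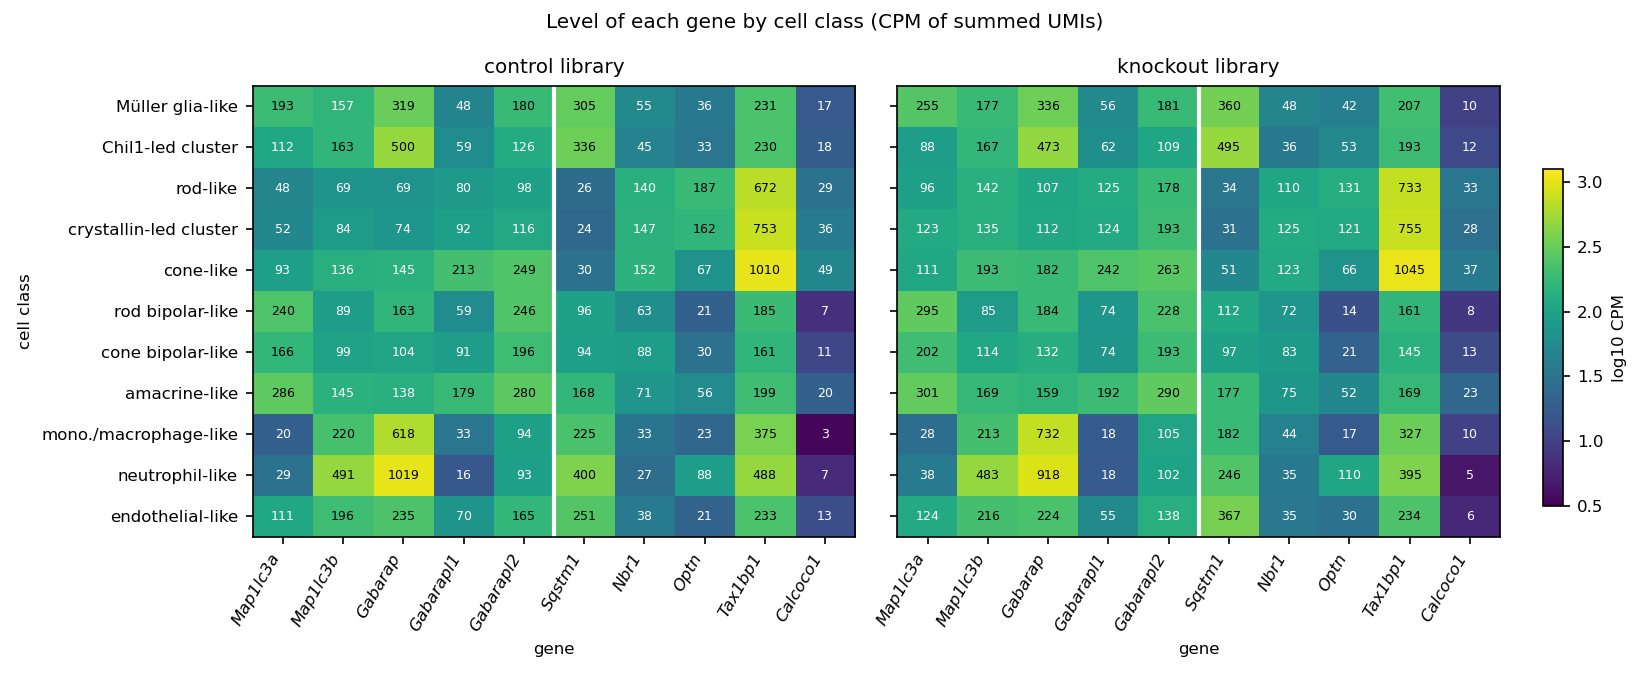
Levels of the 10 genes by cell class. Rows are cell classes, columns are genes and the panels are the control and knockout libraries. Printed numbers give CPM over the summed cells of a class, and colour gives its log10. Tax1bp1 reaches 1009.7 CPM in control cones and Gabarap 1019 CPM in control neutrophils, while Calcoco1 stays under 50 CPM in every class.

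The LC3 genes differed in where they were high: Map1lc3a in inner retinal neurons and Map1lc3b in neutrophils, while both were low in control rods. Control levels were 286 CPM in amacrine-like cells and 239.7 CPM in rod bipolar-like cells, against 29.4 CPM in neutrophils and 19.97 CPM in monocytes and macrophages, a 14.3-fold span over 11 classes. The knockout order was similar, with retinal ganglion-like cells on top at 476 CPM and amacrine-like cells next at 301 CPM. Map1lc3b, whose product is the LC3 form most used as an autophagosome marker, was highest in neutrophils at 491 CPM in the control library and 483 CPM in the knockout library. It was lowest in control rods (69.5 CPM) and spanned 7.07-fold. When each cell was given equal weight, rod bipolar-like and not amacrine-like cells held the highest Map1lc3a of the 11 classes compared in both libraries, ganglion-like cells not among them.

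In the control Gabarap was higher and Gabarapl1 lower in blood-derived cells than in the neuronal classes compared. The Chil1-led cluster, Müller glia-like and endothelial-like cells also held more Gabarap than those neuronal classes. Gabarap stood at 1019 and 918 CPM in control and knockout neutrophils, 618 and 732 CPM in monocytes and macrophages, 499.9 and 473 CPM in the Chil1-led cluster and 319 and 336 CPM in Müller glia-like cells. Its lowest level was in control rods, 69.2 CPM. In the control the first 5 classes of this order had counting intervals that did not overlap their neighbours. Gabarapl1 ran the other way, with 213 CPM in control cones and 179 CPM in control amacrine-like cells, against 47.6 CPM in Müller glia-like cells and 16.3 CPM in neutrophils. Knockout ganglion-like cells held 410.4 CPM of it. In the control Gabarapl2 was the most even of the 10 genes, between 279.8 CPM in amacrine-like cells and 93.5 CPM in neutrophils, a 2.99-fold span. In the knockout, over 12 classes, Nbr1 spanned less (3.59-fold) than Gabarapl2 (3.66-fold).

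Among the receptor genes, Tax1bp1, Nbr1 and Calcoco1 were highest in the photoreceptor groups of the control, and Sqstm1 was lowest there. Tax1bp1, whose product binds ubiquitinated cargo and also restrains NF-kB signalling, was at 1009.7 CPM in control cones, 753 CPM in the crystallin-led rod cluster and 672 CPM in rods. Knockout levels were 1045, 755 and 733 CPM. Neutrophils came next at 488 and 395 CPM, and the lowest level was in cone bipolar-like cells at 161 and 145 CPM. The 3 photoreceptor groups did not overlap their neighbours in the control order. Müller glia-like cells held 231 and 207 CPM and did not differ beyond counting error from endothelial-like cells or the Chil1-led cluster in the control.

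Optn encodes optineurin, a receptor linked to glaucoma in humans. Its level was 187 CPM in control rods and 162 CPM in the crystallin-led cluster, whose intervals overlapped. Control neutrophils followed at 88.1 CPM, cones at 66.9 CPM and Müller glia-like cells at 36.0 CPM. Nbr1, a receptor related to p62, was at 152 CPM in control cones, 147 CPM in the crystallin-led cluster and 140.4 CPM in rods. It was at 54.7 CPM in Müller glia-like cells and 27.2 CPM in neutrophils. Calcoco1, a receptor for endoplasmic reticulum and Golgi cargo, was at 49.1 CPM in control cones and 16.9 CPM in Müller glia-like cells. It was the least abundant member in Müller glia-like cells, while Sqstm1 was lower than it in the photoreceptor groups of the control. Cones, the crystallin-led cluster and rods were therefore the top 3 classes for Nbr1, Calcoco1 and Tax1bp1 in the control, and rods and the crystallin-led cluster the top 2 for Optn.

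Sqstm1 was low in the photoreceptor groups, while control neutrophils, highest in it, also held Tax1bp1 at 488 CPM and Optn at 88.1 CPM. The span of Sqstm1 was the widest of the control, 16.8-fold. In the knockout, over 12 classes, Gabarapl1 (23.3-fold) and Map1lc3a (17.2-fold) spanned more than Sqstm1 (16.2-fold). In the control Sqstm1 was at 399.5 CPM in neutrophils, 336 CPM in the Chil1-led cluster, 305 CPM in Müller glia-like cells, 251 CPM in endothelial-like cells and 225 CPM in monocytes and macrophages. Amacrine-like cells held 168 CPM and bipolar-like cells under 100 CPM. The photoreceptors were lowest, with 30.3 CPM in cones, 26.0 CPM in rods and 23.8 CPM in the crystallin-led cluster, which did not differ beyond counting error. Knockout photoreceptors were lowest too, between 30.6 and 51.1 CPM. The highest knockout level was in the Chil1-led cluster at 495 CPM, with Müller glia-like cells at 359.5 CPM.

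Depth differs between classes, so the share of cells with at least 1 Sqstm1 UMI was also read after thinning every cell to 1000 UMIs. This share was 21.4% (interval 17.1 to 26.3) of 322 control and 27.1% (23.5 to 31.1) of 549 knockout Müller glia-like cells. It was 2.19% of 2052 control and 2.86% of 210 knockout rods. Thinning left out 19 and 12 Müller glia-like cells and 1155 and 165 rods that were shallower. Unthinned, the shares were 72.1% and 88.2% in Müller glia-like cells, at median depths of 15584 and 20084 UMIs, and 3.24% and 5.60% in rods, at 1118 and 1073 UMIs. The rod shares may include RNA freed from other cells; its part was not tested.

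**Figure D2:**
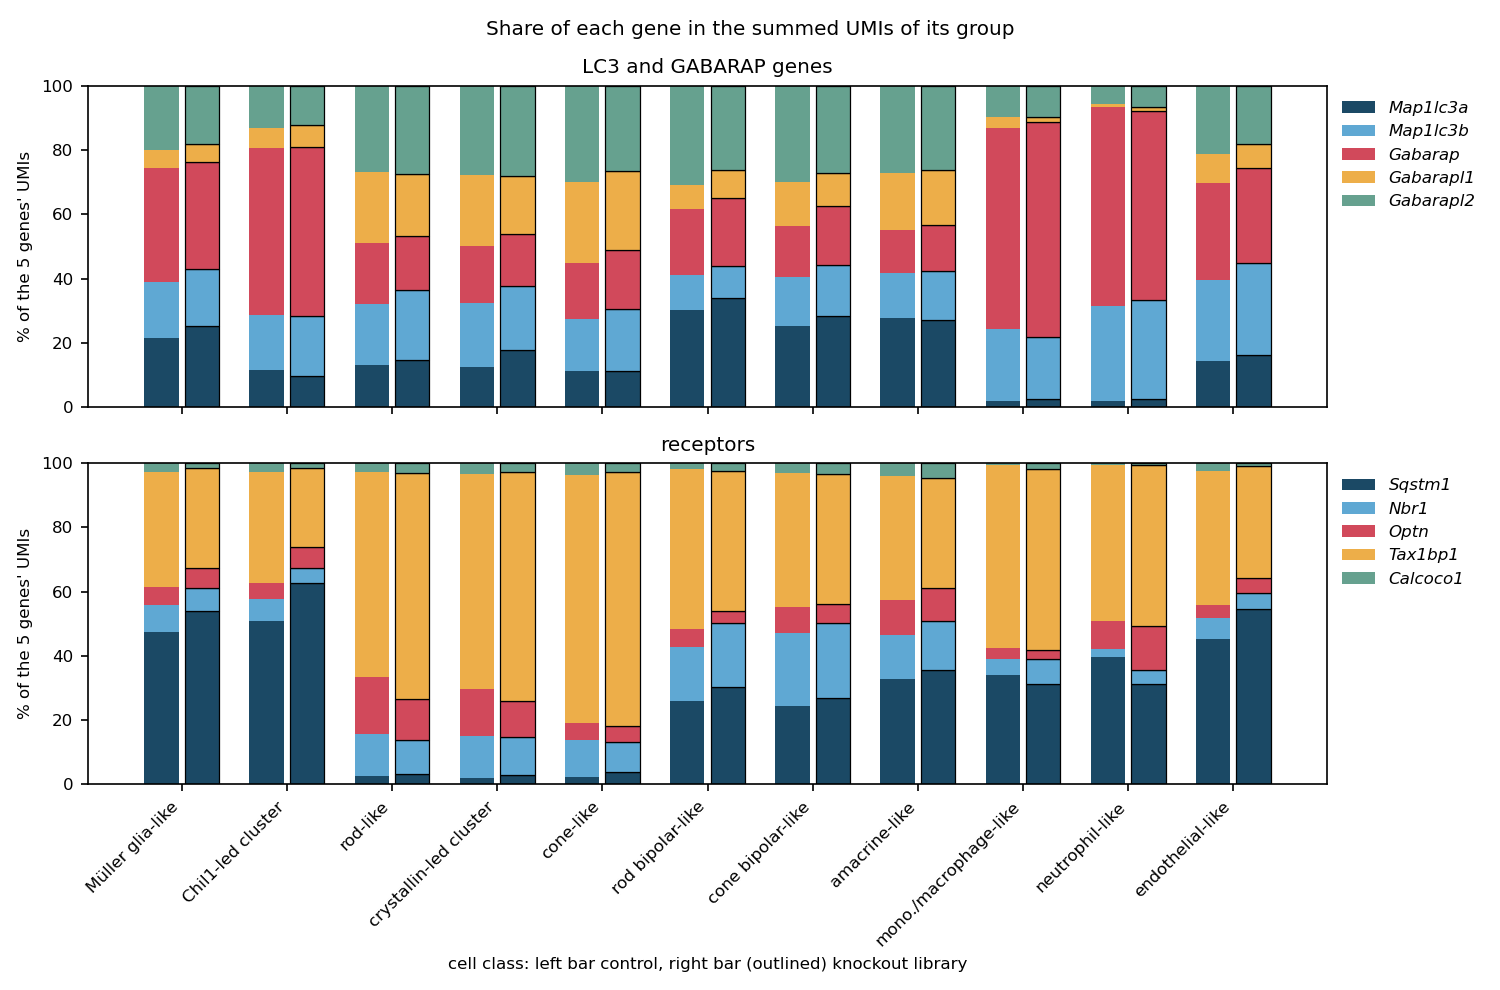
Make-up of the 2 gene pools in each class. Stacked bars give each gene's percent of the summed UMIs of the 5 LC3 and GABARAP genes (top) and of the 5 receptor genes (bottom), for the control and knockout libraries. Tax1bp1 fills 63.7% to 79.0% of the receptor pool in the photoreceptor groups, and Sqstm1 47.4% and 53.9% in Müller glia-like cells.

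The make-up of each pool shows the same split. Tags from the 3′ end do not scale with transcript length, but capture may still differ from gene to gene, and reads of Map1lc3b and Gabarapl1 may be shared with their overlapping genes. Gabarap gave 35.6% and 33.4% of LC3 and GABARAP UMIs in control and knockout Müller glia-like cells, and 61.8% and 62.7% in control neutrophils and monocytes and macrophages. In control amacrine-like cells it gave 13.4%, behind Map1lc3a (27.8%) and Gabarapl2 (27.2%). Sqstm1 gave 47.4% and 53.9% of receptor UMIs in Müller glia-like cells but 2.12% to 3.87% in the photoreceptor groups of the libraries. There Tax1bp1 gave 63.7% to 79.0%. The receptor pool as a whole was larger in control rods (1056 CPM) than in control Müller glia-like cells (644 CPM), and the LC3 and GABARAP pool smaller (366 against 897 CPM).

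Direct ratios put numbers on the contrast between Müller glia-like cells and rods. A ratio is called past the fold when it is at least 1.5 or at most 0.667. In the control all 10 genes were past it, 5 higher and 5 lower in Müller glia-like cells, where 77.7% of all 10051 genes with at least 100 UMIs were past it. Sqstm1 was 11.7-fold higher (interval 9.66 to 14.4), Gabarap 4.60-fold and Map1lc3a 4.00-fold. Optn had a ratio of 0.192 (0.163 to 0.225), Tax1bp1 0.343 and Nbr1 0.389. In the knockout 3 genes were higher and 5 lower, beside 73.6% of genes, with Sqstm1 at 10.5-fold and Optn at 0.322. Since most genes differ this much between these classes, the counts say little about the members, and the sizes and directions are what is described.

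By CPM, LC3, GABARAP and receptor transcripts of Müller glia-like cells differed little between the knockout and control libraries. One of the 10 genes, Calcoco1, was past 1.5-fold, and it was lower. Among 10322 genes with at least 100 UMIs in the class, 19.9% were past the fold, 3.79% higher and 16.1% lower. The members' median log2 ratio was 0.13, against -0.14 for all genes tested. A scaling by the trimmed mean of M values (TMM) moved all Müller ratios up, by 0.22 on the log2 scale. Scaling by the median ratio of genes with at least 100 UMIs (median of ratios) moved them up by 0.14. Ratios near 1 therefore carry no firm direction. Under TMM Calcoco1 had a ratio of 0.671, inside the fold, and Map1lc3a 1.53, past it, which left 1 gene higher and 0 lower.

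Map1lc3a went from 193 CPM in the control to 255 CPM in the knockout, a ratio of 1.32 (1.23 to 1.42), the largest of the members. Map1lc3b was at 157 and 177 CPM (1.13, 1.04 to 1.22). Gabarap was at 319 and 336 CPM (1.05, 0.996 to 1.12), and its ratio came out below 1 under 5 of the alternative settings, down to 0.907. By plain CPM, none of the 5 LC3 and GABARAP genes was past the fold. Class scaling factors of 0.861 (TMM) and 0.908 (median of ratios) move all their ratios up. Under TMM Map1lc3a lies past the fold. Gabarapl1 was at 47.6 and 55.7 CPM (1.17, 1.01 to 1.36) and Gabarapl2 at 180.0 and 181 CPM (1.01, 0.932 to 1.09). Summed, the 5 genes were at 897 and 1005 CPM, a ratio of 1.12 (1.08 to 1.16).

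Sqstm1, whose protein is commonly read as an autophagy substrate, was at 305 CPM in control and 359.5 CPM in knockout Müller glia-like cells (1.18, 1.11 to 1.25). Tax1bp1 was at 231 and 207 CPM (0.899, 0.839 to 0.963). Nbr1 was at 54.7 and 48.0 CPM (0.878, 0.761 to 1.01) and Optn at 36.0 and 42.3 CPM (1.18, 0.993 to 1.39). None of these 4 reached 1.5-fold in either direction, and the intervals of Nbr1 and Optn hold 1. Calcoco1 was at 16.9 and 9.76 CPM, from 93 and 109 UMIs, a ratio of 0.578 (0.434 to 0.770). After thinning to 1000 UMIs per cell the Calcoco1 ratio was 1.37, at 9.32 and 12.8 CPM. Thinning left far fewer Calcoco1 UMIs than 93 and 109, and no interval is given for the thinned ratio. It therefore shows no firm change of direction. After removal of free RNA the Calcoco1 ratio was 0.386. The receptor pool was at 644 and 667 CPM (1.04, 0.996 to 1.08).

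Other values of the class moved beside these. The summed level of 8 rod markers was 841 CPM in the control library and 336 CPM in the knockout library, with all 8 detected in both. Neutrophil markers (9 genes) were at 269.7 and 82.9 CPM, with Cxcr2 and Ly6g at 0 in the knockout, and 6 astrocyte markers at 158 and 176 CPM, with Gjb6 at 0 in both. Haemoglobin and erythroid markers (5 genes) were at 7.08 and 993 CPM, most of it in 2 knockout cells. The most filled cluster of the control class was led by Rlbp1 and Timp3 and held 137 control and 5 knockout cells. That of the knockout was led by Prss56 and held 43 and 283 cells. Leaving out cells rich in haemoglobin kept the count at 1 lower. Taking away estimated free RNA gave 1 higher, with Optn at 1.64, and 1 lower. The values without the Lcn2-low cells of the class are given with the subclusters.

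**Figure D3:**
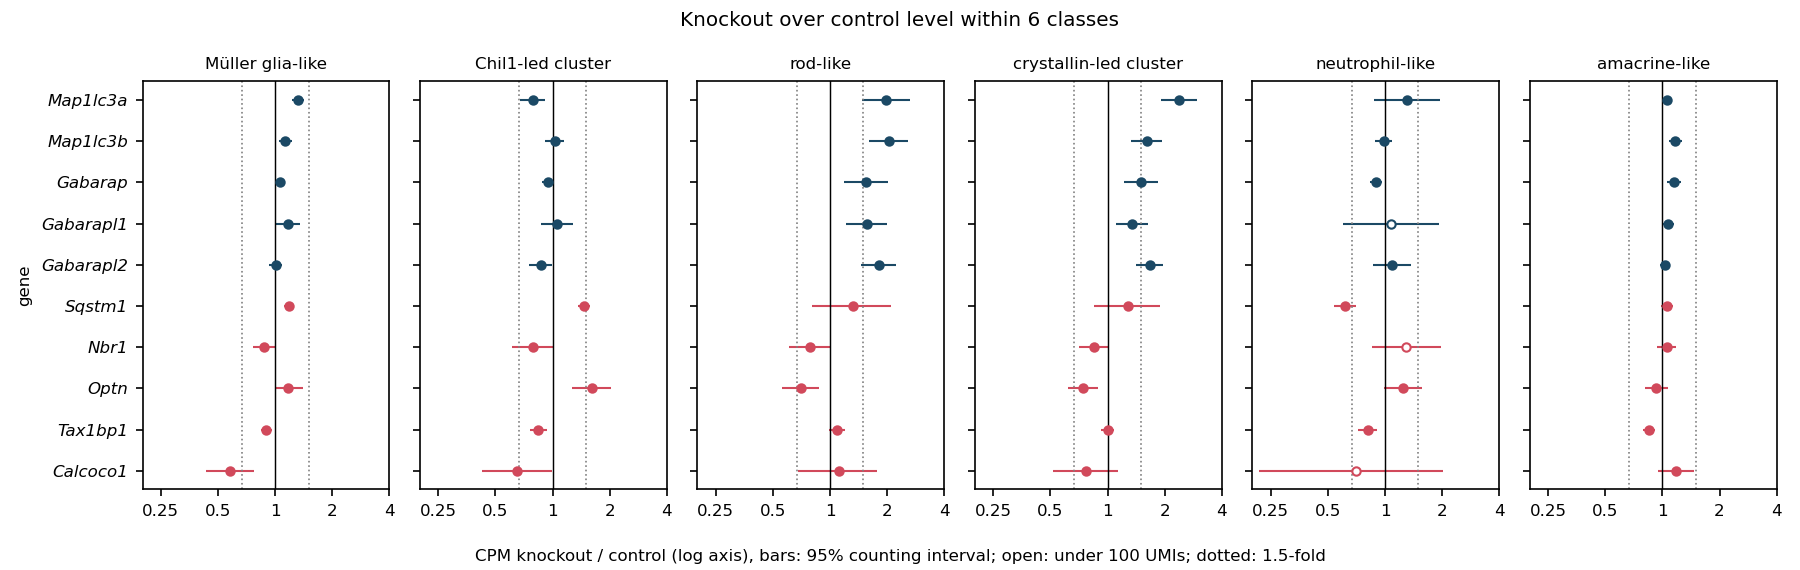
Knockout over control ratio of each gene in 6 classes. Points are ratios of CPM on a log axis, bars are 95% counting intervals and the dashed lines mark 1.5-fold in each direction. In Müller glia-like cells the points lie between 0.578 (Calcoco1) and 1.32 (Map1lc3a), and in rods the 5 LC3 and GABARAP genes lie between 1.55 and 2.04.

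Control Calcoco1 differed more between groups of Müller glia-like cells than it did between the libraries over the whole class. Clustered again, they gave 5 subclusters, which differed in Lcn2 (lipocalin 2, an acute-phase protein induced by LPS) and Glul. The one lowest in Lcn2 held 83 control cells and 1 knockout cell, with control Lcn2 at 1195 CPM and Glul at 4404 CPM. Calcoco1 was at 33.3 CPM in its control cells. It was nearly as high, at 29.9 CPM from 20 UMIs, in the 81 control cells of a subcluster with control Lcn2 at 12938 CPM. The 17 knockout cells of that subcluster held 0 Calcoco1 UMIs. In a subcluster with control Lcn2 at 11845 CPM, control Calcoco1 was at 9.18 CPM from 2 UMIs. In the subcluster highest in Lcn2 (43860 CPM in the control; 91 and 169 cells) Calcoco1 was at 6.58 and 7.24 CPM, and in the one with most knockout cells (33 and 305 cells) at 13.1 and 11.6 CPM. These rest on 17 and 32 UMIs and on 9 and 73 UMIs, and their ratios of 1.10 (0.593 to 2.11) and 0.884 (0.441 to 2.01) have intervals that hold 1. Without the subcluster low in Lcn2, the Calcoco1 ratio of the class was 0.845.

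Within these better filled subclusters the other members kept close levels as well. Map1lc3a was at 254 and 314 CPM where most knockout cells lie, and at 140.1 and 169 CPM where Lcn2 was highest, ratios of 1.23 (1.06 to 1.45) and 1.20 (1.06 to 1.37). Sqstm1 was at 324 and 375 CPM in the former and 321 and 353 CPM in the latter (1.16 and 1.10). Gabarap was at 359 and 349.7 CPM, and at 341 and 316 CPM. No member with at least 100 UMIs was past 1.5-fold in either subcluster (9 members each), where 17.4% and 8.95% of all genes were. In a shallower subcluster (53 and 69 cells, median depths of 2310 and 3016 UMIs) Map1lc3b was past it, at 119 and 219.7 CPM (1.84, 1.16 to 2.998). Map1lc3a was past it in 1 subcluster of 81 and 17 cells, at 157 and 238 CPM (1.51, 0.967 to 2.30), and over the class without the cells low in Lcn2, at 1.52.

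**Figure D4:**
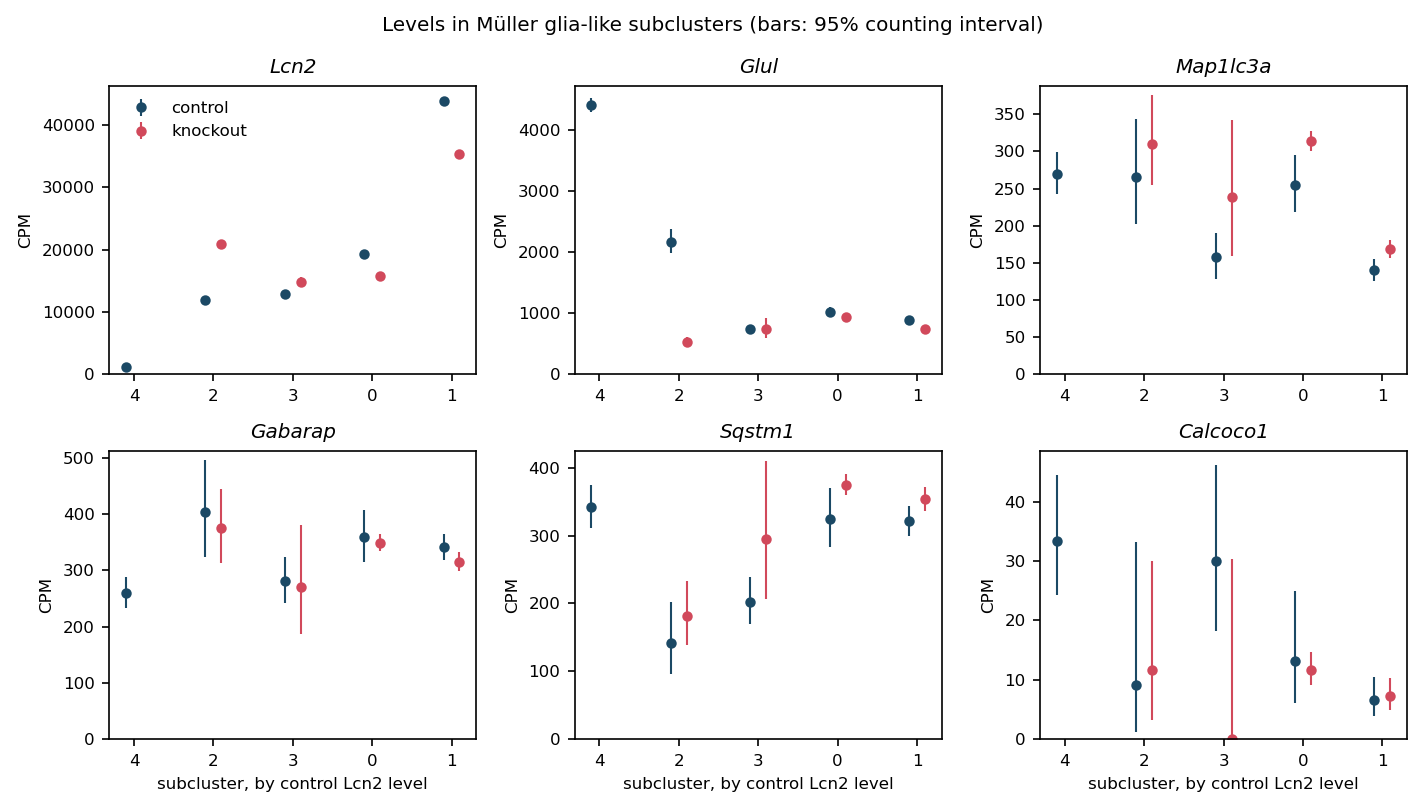
Levels of Lcn2, Glul and 4 members in the Müller glia-like subclusters. Each panel shows CPM on the y axis for one gene, with the subclusters on the x axis ordered by control Lcn2; points are libraries, bars are 95% counting intervals and points from under 10 cells are left out. Control Calcoco1 is at 33.3 CPM in the subcluster lowest in Lcn2, 29.9 CPM in one with Lcn2 at 12938 CPM and 6.58 CPM in the one highest in Lcn2.

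In the Chil1-led cluster 1 member was past 1.5-fold higher and 1 lower, beside 11.4% of 7922 genes past it in either direction. Optn was at 32.9 CPM in the control library and 53.0 CPM in the knockout library (1.61, 1.27 to 2.04). Calcoco1 was at 18.4 and 11.98 CPM (0.653, 0.422 to 0.988), from 83 and 33 UMIs. Sqstm1 was at 336 and 495 CPM (1.47, 1.37 to 1.58), just inside the fold. Class scaling factors were 0.958 by TMM and 0.937 by median of ratios. Under either, Sqstm1 would lie past the fold and Calcoco1 inside it. Map1lc3a was at 112 and 88.2 CPM, a ratio of 0.785 (0.671 to 0.917), opposite to the Müller glia-like cells. The cluster held a median of 7.61% and 9.14% mitochondrial UMIs per cell, against 2.73% and 2.89% in the Müller class, and median depths of 54751 and 25869.5 UMIs. Whether these values bear on the ratios was not tested.

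Rods gave the largest difference in the conjugated family. All 5 LC3 and GABARAP genes were past 1.5-fold higher in knockout rods, and no member was past it lower. Of 7357 genes with at least 100 UMIs in rods, 30% were past the fold in either direction and 11.2% of the 7357 were past it higher, and the median log2 ratio was -0.15. Map1lc3b was at 69.5 CPM in control and 142 CPM in knockout rods (2.04, 1.60 to 2.58). Map1lc3a was at 48.2 and 95.5 CPM (1.98, 1.47 to 2.64) and Gabarapl2 at 98.4 and 178 CPM (1.81, 1.46 to 2.22). Gabarapl1 was at 80.2 and 125 CPM (1.56, 1.22 to 1.99) and Gabarap at 69.2 and 107 CPM (1.55, 1.18 to 2.02). The pool went from 366 to 648 CPM, a ratio of 1.77 (1.59 to 1.97).

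Rod receptors did not share this shift. Their pool was at 1056 and 1042 CPM (0.987, 0.910 to 1.07), and the ratio of Tax1bp1 was 1.09 (0.989 to 1.20). Optn was lower in the knockout, at 187 and 131 CPM (0.701, 0.556 to 0.875), which is inside the fold. Nbr1 was at 140.4 and 110.5 CPM, and Sqstm1 at 26.0 and 34.3 CPM from 109 and 23 UMIs.

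The crystallin-led rod cluster gave like values. Here 4 of the 10 genes were past 1.5-fold higher, beside 10.4% of 7473 genes, and none lower; 23.9% of those genes were past the fold in either direction. Map1lc3a was at 51.9 and 123 CPM (2.37, 1.90 to 2.95), Gabarapl2 at 116 and 193 CPM (1.67), Map1lc3b at 84.2 and 135 CPM (1.61) and Gabarap at 74.2 and 112 CPM (1.503, 1.22 to 1.85). Gabarapl1 had a ratio of 1.35. The pool ratio was 1.64 (1.51 to 1.79). Both clusters come from the same 2 libraries, so the second is no independent check of the first.

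Rod quality differed between the libraries. Median mitochondrial UMIs per cell were 1.37% in control and 4.10% in knockout rods, and 1.44% and 4.15% in the crystallin-led cluster. The nuclear transcript Malat1 was at 24465 and 30620.4 CPM in rods, and the 8 rod markers summed to 13511 and 19749 CPM. Knockout rods had a median depth of 1073 UMIs, against 6808 over their library, and none of the fixed rod markers was among the cluster's 10 leading genes, which include Sag and Impg1 of photoreceptors. Erythroid markers were at 53.5 and 16483 CPM, nearly all in 1 knockout cell. Without cells rich in haemoglobin the count was still 5.

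In cells with under 2% mitochondrial UMIs, a subset chosen after seeing the data (1839 control and 116 knockout rods), 2 of the 5 genes were past 1.5-fold. Map1lc3b had a ratio of 2.53 (1.61 to 3.83) and Gabarapl2 1.69 (1.09 to 2.52). Map1lc3a was at 1.30 (0.579 to 2.58), Gabarapl1 at 1.17 and Gabarap at 1.13, with intervals that hold 1. The pool ratio was 1.58 (1.26 to 1.97) in these cells and 1.78 (1.56 to 2.02) in cells with at least 2%. In the crystallin-led cluster the same subset (1342 and 141 cells) left 4 of the 5 genes past 1.5-fold, with Map1lc3a at 1.91 (1.16 to 3.02), Gabarapl2 at 1.74, Map1lc3b at 1.71 and Gabarapl1 at 1.55, and Gabarap at 1.10; its pool ratio was 1.60 (1.33 to 1.92). When, in rods, the 5 cells per library with most UMIs of each gene were left out, 3 genes were past the fold.

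Cones and inner retinal neurons showed no member past 1.5-fold. This held for 8 eligible members in cones (5.01% of all genes past it), 8 in rod bipolar-like cells (4.55%), 10 in cone bipolar-like cells (6.07%) and 10 in amacrine-like cells (5.18%). In amacrine-like cells, the best counted neuronal class, ratios ran from 0.853 (Tax1bp1) to 1.18 (Calcoco1). Map1lc3b in cones was at 136 and 193 CPM (1.42, 1.12 to 1.81). In cone bipolar-like cells Optn was at 30.4 and 20.9 CPM (0.686, 0.527 to 0.894), just inside the fold, and Gabarap at 104 and 132 CPM (1.27, 1.12 to 1.44). The summed LC3 and GABARAP pool had ratios of 1.08 to 1.19 in these 4 classes.

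In neutrophils Sqstm1 was lower in the knockout library. They held 399.5 CPM of it in the control library and 246 CPM in the knockout library (0.616, 0.538 to 0.703), the 1 of 7 eligible members past the fold. Of 3186 genes, 18.6% were past it in this class, 15% lower, so 1 of 7 is no more than the background. The larger of the 2 neutrophil clusters (167 and 159 cells) gave 432 and 244 CPM, and the smaller one (52 and 5 cells) 317 and 284 CPM. Tax1bp1 was at 488 and 395 CPM (0.809, 0.725 to 0.903), and the receptor pool had a ratio of 0.783. Gabarap was at 1019 and 918 CPM (0.901, 0.837 to 0.969). Scaling factors of the class, knockout over control, were 0.856 by TMM and 0.934 by median of ratios, and both move its ratios up. Under TMM Sqstm1 would lie inside the fold, and under median of ratios it would stay past it. The intervals of Tax1bp1 and Gabarap would hold 1 under TMM, so these neutrophil ratios carry no firm direction. Monocytes and macrophages had 0 of 6 eligible members past the fold (9.8% of genes), with Sqstm1 at 225 and 182 CPM (0.808, 0.685 to 0.951).

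Foreign transcripts also differed between the neutrophils of the libraries. The 8 rod markers summed to 2006 CPM in control and 494 CPM in knockout neutrophils, 9 lens markers to 147 and 6.13 CPM, and the 9 neutrophil markers to 113543 and 150811 CPM. Photoreceptors are the classes lowest in Sqstm1. The part of these values in the Sqstm1 ratio was not tested.

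Endothelial-like cells had Sqstm1 in the opposite direction, at 251 CPM in the control library and 367 CPM in the knockout library (1.46, 1.30 to 1.64). Their 2 clusters gave ratios of 1.49 (37 and 23 cells) and 1.47 (19 and 28 cells). None of 9 eligible members was past 1.5-fold, beside 8.23% of 6134 genes. Under TMM (class factor 0.943) Sqstm1 would lie past the fold, and under median of ratios (0.977) inside it. Neutrophil markers in this class were at 2195 and 64.8 CPM, and their part was not tested.

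The rest of the pathway was read in Müller glia-like cells from 7 lists. Of 81 genes with at least 100 UMIs, 5 were past 1.5-fold higher and 7 lower, beside 3.79% and 16.1% of all genes. LC3 conjugation (10 genes, among them Atg5) had 0 higher and 3 lower: Atg16l1 at 19.1 and 11.0 CPM (0.577), Atg4c at 13.4 and 7.79 CPM (0.580) and Atg4a at 26.9 and 17.2 CPM (0.639). ATG16L1 is the partner of ATG5, and the ATG4 proteases trim LC3 and GABARAP. Under TMM, with a class factor of 0.861, all 3 genes would lie inside the fold. Atg12 had the largest ratio there, 1.04, and Atg3 the highest level, 68.8 and 63.8 CPM. Other receptors and adaptors (15 genes measured) had 0 higher and 2 lower, Ccpg1 (0.646), a receptor for endoplasmic reticulum, and Wdfy3 (0.644). Their largest ratio was 1.24 for the mitophagy receptor Bnip3 and their highest level 352 and 309.7 CPM for Sec62. Ccpg1 and Wdfy3 would also lie inside the fold under TMM.

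Initiation and membrane supply (17 genes) had 2 higher and 0 lower. Vmp1, which acts in membrane supply at the endoplasmic reticulum, was at 368 and 662 CPM (1.80), and Wipi2, which binds the phosphoinositide of the forming membrane, at 49.8 and 85.2 CPM (1.71). Yet the list's median log2 ratio was -0.25, below the -0.14 of all genes, and Atg14 had the smallest ratio, 0.684. Fusion with the lysosome (15 genes) had 0 higher and 2 lower, Stx17 (0.649) and Vps39 (0.558). Vamp8 had the largest ratio in that list, 1.30, and Lamp2 the highest level, 240.3 and 266 CPM. Under TMM Stx17 would lie inside the fold and Vps39 would stay past it.

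Sqstm1 is a target of the antioxidant factor NRF2, and its product binds KEAP1, which restrains NRF2. Among 9 measured NRF2 targets beside Sqstm1, Srxn1 was at 93.0 and 226 CPM (2.43) and Hmox1 at 72.3 and 176 CPM (2.43), and none was past the fold lower. Gclm had the smallest ratio, 0.745, and Prdx1 the highest level, 614 and 617 CPM. The list's median log2 ratio was 0.01. Of 9 kinases and partners of receptors 1 was higher, Traf6 (1.56), and Keap1 had the smallest ratio, 0.752. Nfe2l2, the NRF2 gene, was at 81.7 and 89.0 CPM. None of 6 transcription factors of autophagy genes was past the fold, with ratios from 0.690 (Zkscan3) to 1.22 (Tfe3) and Foxo3 highest at 124 and 128 CPM.

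Patterns over classes were compared by Pearson's r of log2(CPM + 5) over 23 class and library points, which share their libraries, depth and free RNA, so r is a description. Among member pairs the closest were Map1lc3a with Gabarapl2 (0.86), Map1lc3b with Gabarap (0.82) and Nbr1 with Calcoco1 (0.81). The most opposed were Sqstm1 with Nbr1 (-0.93) and Gabarap with Nbr1 (-0.85). Out of 4238 genes with a mean of at least 50 CPM, the 2 most like Sqstm1 were Lpp (0.94) and Psme1 (0.92). Gabarap was most like Cstb (0.95) and Ftl1 (0.95), Optn most like Casz1 (0.86) and Arhgef26 (0.84), and Tax1bp1 most like Slc25a37 (0.92) and Cabp4 (0.89). Map1lc3a was closest to Mxra7 (0.93) and Tcaf1 (0.91), and Map1lc3b to Rab7 (0.91) and Cript (0.89). Gabarapl1 ran with Pcmt1 (0.93) and Jkamp (0.92), and Gabarapl2 with Ndfip1 (0.91) and Rtn3 (0.90). Nbr1 ran with Upf3b (0.95) and Snrnp70 (0.94), and Calcoco1 with Ppa2 (0.90) and Tusc3 (0.89).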

How the data were processed

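Single-cell RNA-seq libraries were made from pooled retinas with the 10x Genomics 3′ v3.1 kit. The authors deposited a matrix of raw UMI counts per gene and cell for each library, which per the file headers came from Cell Ranger 6.0.0, mapped to mm10 per the labels. Seurat 5.2.1 is named in the submitters' processing notes. Whether strand was used in counting is not given in the sources used here.

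Cells that passed the study's own filter, 500 or more genes and below 25% mitochondrial UMIs, were clustered without integration in Seurat 5.3.0 (R 4.3.3; 2000 variable genes, 11 components, resolution 1, seed 1). A cluster was named where at least 3 markers had 10 UMIs, its score and lead were at least 1, 75% of its list was at least 2-fold over the median cluster, and its 10 leading genes held no more genes of a foreign list than of its own. The thresholds, set after seeing the data, kept 6.10% and 12.4% of cells unnamed, besides the Chil1-led and crystallin-led clusters. UMIs were summed per library and class (Python 3.11.15, pandas 2.3.3, scipy 1.17.1), with exact Poisson intervals for CPM, exact binomial intervals for ratios and Clopper-Pearson intervals for shares, all for counting error only. A gene entered a ratio with 100 UMIs over both libraries.

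Scrublet called 0 cells in either library and so did not work, and no doublets were removed; the 548 and 174 cells with the highest scores were left out as an alternative. All 10 genes are named by rule; from each pathway list the largest and smallest ratio, the highest level and every gene past the fold are named. The 10 genes and the lists were chosen with earlier results of these data known. No test was run, since each group is 1 library.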

Additional observations from a re-analysis of the deposited data

Results flagged for a closer look

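For 6 genes the knockout over control ratio lay above 1 in one class and below 1 in another, with counting intervals that exclude 1 in both. No such difference was tested, since each group is 1 library. Map1lc3a had a ratio of 2.37 in the crystallin-led rod cluster and 0.785 in the Chil1-led cluster. Gabarap had 1.55 in rods and 0.901 in neutrophils, though the neutrophil TMM factor of 0.856 would move the latter above 1. Gabarapl1 had 1.56 in rods and 0.819 in cone bipolar-like cells. Gabarapl2 had 1.81 in rods and 0.836 in endothelial-like cells, where the TMM factor of 0.943 would make the interval hold 1. Sqstm1 had 1.47 in the Chil1-led cluster and 0.616 in neutrophils. Optn had 1.61 in the Chil1-led cluster and 0.686 in cone bipolar-like cells.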

How the results depend on the processing

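In Müller glia-like cells (1 of 10 members past 1.5-fold, 0 higher) the count higher was 1 under TMM scaling, the per-cell marker call, removal of free RNA, the subcluster 2 alone or 3 alone and, as alternatives added after seeing the data, without the subcluster low in Lcn2 and in cells under 2% mitochondrial UMIs. The count lower was 0 under TMM, without that subcluster, in subclusters 0 to 3 alone and at a 2-fold bound, and 2 after thinning. The members' median log2 ratio was 0.34 under TMM and 0.27 under median of ratios. Calcoco1 had a ratio of 1.37 after thinning, which left too few UMIs of it to show a firm change of direction. Of 81 pathway genes, the counts higher and lower (5 and 7) were 9 and 1 under TMM, 9 and 18 for the mean of per-cell CPM, 13 and 23 after thinning, 8 and 3 at resolution 0.5, 8 and 4 without the top 5 cells, 8 and 18 after removal of free RNA, 8 and 2 with the Chil1-led cluster and 8 and 17 under 2% mitochondrial UMIs. The count lower was 3 under median of ratios, 4 by the per-cell call and 2 without the subcluster low in Lcn2. In rods (5 higher, 0 lower) the count lower was 1 after thinning, with the stricter cell filter and without the top 5 cells, which left 3 higher; under 2% mitochondrial UMIs 2 were higher. The share of control Müller glia-like cells with Sqstm1 was 21.4%, 72.1% unthinned and 37.3% at 2000 UMIs. At subcluster resolution 0.2, 1 member was past the fold in the best filled subcluster, against 0. The cause of these shifts was not tested. The Müller subcluster lowest in Lcn2 could not be run alone, with 1 knockout cell. No paired analysis was possible because each group is 1 library. Depth limits Calcoco1 most, at 93 and 109 UMIs in Müller glia-like cells.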

Other observations

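Classes under 50 cells entered no comparison. Horizontal-like cells (31 control and 39 knockout cells) had Gabarapl2 at 388 and 363 CPM, Gabarapl1 at 268 and 273 CPM and Sqstm1 at 177 and 188 CPM. The 39 control ganglion-like cells had Gabarapl1 at 377 CPM and Map1lc3a at 334 CPM. Pericyte-like cells (42 and 18 cells) had Gabarap at 378 and 503 CPM.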
